A study of Homo sapiens with 2 samples.

Results

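MALAT1, NEAT1 and the genes of 5 proteins that gather on NEAT1 RNA (SFPQ, NONO, PSPC1, RBM14 and MATR3) were followed by RNA sequencing. The human cells were labelled as the pancreatic adenocarcinoma line MIA PaCa-2. The cells had been given vehicle or iMQT_020, which the labels describe as an inhibitor of the mitochondrial glutamine transporter, for 48 hours, with 1 library per treatment. The 7 genes were found by symbol among 46427 gene rows, and all 7 were among the 14805 measured genes, meaning 50 or more counts in 1 or both libraries. The genes were chosen by a rule that drew on counts, TPM and FPKM of these same libraries, so their values are a description and no p-value is given. With 1 library per group there is no replicate check, and the treatment cannot be told apart from any other difference between the libraries.

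MALAT1 and NEAT1 are long non-coding RNAs that stay in the nucleus. NEAT1 RNA is the scaffold of the paraspeckle, a nuclear body that is assembled around the long form of the transcript while a shorter, polyadenylated form from the same start is not sufficient to build one. SFPQ, NONO and PSPC1 are the DBHS family (Drosophila behaviour and human splicing), RNA-binding proteins that pair with each other and coat NEAT1, RBM14 is a prion-like protein needed for assembly, and MATR3 is a nuclear matrix protein that binds SFPQ and NONO. MALAT1 is concentrated in nuclear speckles, the neighbouring bodies that store splicing factors.

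Estimated counts summed to 67095283 with vehicle and 59139157 with iMQT_020. Identity markers went largely against the label. MIA PaCa-2 lacks CDKN2A, yet that gene stood at 278 TPM with vehicle and 208 TPM with iMQT_020 (TPM is a level scaled for transcript length and depth). MTAP and CDKN2B, lost with it in that line, stood at 33.7 and 26.2 TPM and at 8.04 and 13.5 TPM. CD44, abundant in MIA PaCa-2, stood at 0.0964 and 0.0209 TPM. ANXA1, also expected there, had 3.13 and 2.74 TPM. The other 3 markers expected in the line were well expressed, VIM at 403 and 438 TPM, KRT8 at 128 and 92.3 TPM and KRT18 at 97.4 and 77.5 TPM. By CDKN2A, MTAP, CDKN2B and CD44 the cells were not as labelled. The values below are therefore those of the cells sequenced, whose identity is uncertain. Of 7 markers of other cell types, 5 were at 0 in both libraries, among them PTPRC of blood cells. The summed level of the list, 16.5 TPM (vehicle) and 11.3 TPM (iMQT_020), was almost wholly the collagen gene COL1A1.

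NEAT1 and MALAT1 lie near each other on chromosome 11, NEAT1 at chr11:65422798-65445540 and MALAT1 at chr11:65497738-65506516 (RefSeq, GRCh38.p14, both on the plus strand). Their 3′ ends are known to be made by RNase P in place of polyadenylation and to be capped by a triple helix of U-rich and A-rich stretches. The last 120 bases of the mature transcripts are shown because both RNAs end in this way, unlike polyadenylated RNAs. Capitals mark AAAAGCAAAA, the final 10 bases of mature MALAT1, and TTTTGCTTTT, its reverse complement, read on the transcript strand, the A-rich run at base 111 in each and the T-rich run at base 75 (MALAT1) and 70 (NEAT1). Among the last 120 bases of 54967 canonical GENCODE transcripts, 0.178% held the A-rich run, 0.124% the T-rich run and 1 held both. Those windows stop at annotated ends, which need not be the mature ends shown here, so the 1 may itself be an RNA shown.
MALAT1 3′ end, chr11:65505997-65506116: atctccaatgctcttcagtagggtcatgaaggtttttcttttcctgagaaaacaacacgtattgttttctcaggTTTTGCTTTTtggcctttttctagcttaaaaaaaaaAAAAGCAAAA
NEAT1 long form 3′ end, chr11:65445421-65445540: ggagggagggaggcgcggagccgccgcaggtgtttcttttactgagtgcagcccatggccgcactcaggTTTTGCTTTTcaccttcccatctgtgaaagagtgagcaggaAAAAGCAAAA
The next 58 bases after that mature end, chr11:65506117-65506174, lie inside the annotated MALAT1 span and are released as mascRNA, a tRNA-like cytoplasmic RNA, and are written in capitals throughout.
mascRNA: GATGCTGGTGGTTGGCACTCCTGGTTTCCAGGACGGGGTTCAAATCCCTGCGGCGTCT

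The short form of NEAT1 ends at a poly(A) site inside the gene, and the choice between that site and read-through sets how much long form is made. The 200 bases up to the last annotated 3′ end of the short models are shown because the estimated mixture of the forms differed between the libraries. Capitals mark the poly(A) signal AATAAA and TGTA, the core of the site bound by the cleavage factor of NUDT21 and CPSF6. On the transcript strand the window held 1 AATAAA, at base 190, and 5 TGTA, at bases 21, 36, 80, 118 and 148. Among the same windows of the canonical transcripts 42.4% held AATAAA, 57.7% held TGTA and 1.46% held 5 or more TGTA.
NEAT1 short form 3′ end, chr11:65426314-65426513: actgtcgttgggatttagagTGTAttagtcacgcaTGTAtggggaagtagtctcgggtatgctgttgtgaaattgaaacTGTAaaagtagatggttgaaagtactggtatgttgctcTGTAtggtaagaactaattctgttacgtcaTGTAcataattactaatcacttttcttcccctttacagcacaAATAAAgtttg

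MALAT1 stood at about 2 times its vehicle level in the iMQT_020 library. Its counts were 8031 with vehicle and 14673 with iMQT_020, 30.7 and 65.8 TPM, or 12.6 and 26.2 FPKM (fragments scaled for length and depth). The iMQT_020 library was the higher on every scale. The log2 ratio of CPM (counts scaled for depth), iMQT_020 over vehicle, was 1.05 (exact 95% interval 1.01 to 1.09, counting error only), a 2.06-fold higher level, and 1.99% of all measured genes had a higher ratio. Of the 7 genes, MALAT1 alone was 2-fold or more higher, and 0 were 2-fold or more lower. Over all measured genes 2.15% passed this rule upward, 3.09% downward and 5.23% either way, and among the 9312 with 1000 or more counts the upward and downward shares were 0.322% and 0.956%. At 1.5-fold, 1 of 7 was higher and 0 lower, beside 6.30% and 10.2% of all measured genes. The same contrast chose MALAT1, so nothing is read from these shares.

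NEAT1 gave no single direction. Its counts, 12008 with vehicle and 11108 with iMQT_020, corresponded to 179 and 187 CPM and a log2 ratio of 0.06 (0.03 to 0.10). Its level per length went the other way, from 104 TPM (vehicle) to 88.6 TPM (iMQT_020), and from 42.9 to 35.3 FPKM. The sign therefore depended on whether reads or molecules per length were compared, and neither difference approached 2-fold.

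**Figure D1:**
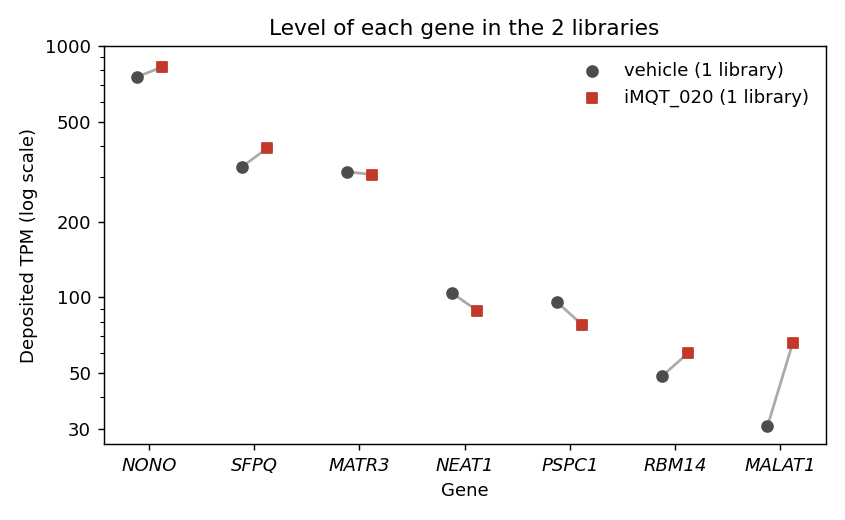
Deposited TPM (log axis) of the 7 genes in the vehicle library (grey circles) and the iMQT_020 library (red squares), 1 library each, joined by lines. MALAT1 goes from 30.7 to 65.8 TPM and passes RBM14, while NEAT1 and PSPC1 are lower in the iMQT_020 library.

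Among the DBHS proteins, SFPQ and NONO were slightly higher and PSPC1 lower in the iMQT_020 library. SFPQ, also a splicing factor, had 54011 and 55949 counts, 330 and 391 TPM, and a log2 ratio of 0.23 (0.21 to 0.24). NONO, the most abundant of the 7, had 59818 and 56117 counts, 752 and 823 TPM, and a log2 ratio of 0.08 (0.07 to 0.10). PSPC1, the family member not required for paraspeckles to form, had 7089 and 4961 counts, 95.7 and 77.6 TPM, and a log2 ratio of −0.34 (−0.39 to −0.29). PSPC1 thus had the lowest ratio of the 7, with 20.7% of measured genes below it. Summed over the family the level was 1177 TPM (vehicle) and 1292 TPM (iMQT_020). NONO made up 63.9% and 63.7% of that sum, SFPQ 28.0% and 30.3%, and PSPC1 8.13% and 6.01%.

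RBM14 and MATR3 differed little between the libraries. RBM14 had 7766 and 8188 counts, 48.7 and 59.8 TPM, and a log2 ratio of 0.25 (0.21 to 0.30). MATR3 had 48508 and 40948 counts, 316 and 308 TPM, and a log2 ratio of −0.07 (−0.09 to −0.05). The order by TPM was NONO, SFPQ, MATR3, NEAT1, PSPC1, RBM14 and MALAT1 in the vehicle library. In the iMQT_020 library the order was the same except that MALAT1 stood above RBM14. Without replicates it cannot be said which neighbours in these orders differ beyond their spread. The median log2 ratio of the 7 was 0.08, beside −0.02 over all measured genes, and 5 of 7 were above 0, beside 47.3% of all measured genes, with 2 of 7 below 0 beside 52.7%.

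**Figure D2:**
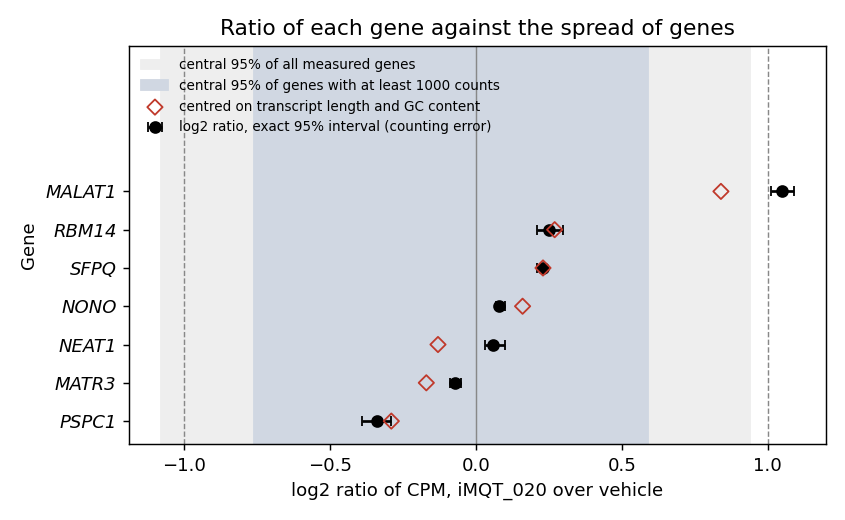
Log2 ratio of CPM, iMQT_020 over vehicle, for the 7 genes (black points; bars are exact 95% intervals of counting error) and the same after centring on transcript length and GC content (red diamonds). Shaded bands are the central 95% of all measured genes and of genes with at least 1000 counts, dashed lines mark 2-fold; MALAT1 lies outside both bands uncentred, and the other 6 lie inside both.

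The disagreement between NEAT1 counts and NEAT1 levels per length lies in the length behind the deposited FPKM. A count divided by its FPKM gives the mean transcript length that the authors' estimate used, once the library constant is known. The constants were taken from 1157 genes with 1 RefSeq transcript and 1000 or more counts in both libraries, and 96.5% of these genes lay within 1% of the constant in each library. By this measure MALAT1 had an implied length of 8779 bases with vehicle, equal to the 8779 bases of its RefSeq span, and 8729 bases with iMQT_020. NEAT1 had 3862 bases with vehicle and 4908 bases with iMQT_020, 27.1% longer. The other 6 genes moved by far less. SFPQ had the next largest difference, 5498 and 5600 bases (1.85%).

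Of 8620 genes counted 1000 or more times in each library, 24 (0.278%) had a ratio of implied lengths at or above that of NEAT1. Those changed by as much in either direction were 52, and the central 95% of ratios ran from 0.927 to 1.08. NEAT1 was chosen on counts and FPKM of these libraries, which also give this ratio, so the counts here are descriptive only. At least 1.1-fold apart in either direction were 1 of the 7 genes and 3.65% of the 8620. Of 60 long non-coding RNA rows with this depth, NEAT1 was the 1 at least 1.1-fold apart. Of 29 other paraspeckle protein genes 1 was, FIGN, at 12864 and 10012 bases, and of 16 nuclear speckle genes 1 was, SRRM1, at 4651 and 3908 bases, both shorter in the iMQT_020 library. Of 11 genes of the RNase P list 1 was, RPP40, at 1512 and 1675 bases, longer in the iMQT_020 library as NEAT1 was, and of 14 other listed long non-coding RNAs 0 were. FIGN and RPP40 were named after their values were seen. These ratios have no error estimate, since the deposited files do not give counts per transcript.

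**Figure D3:**
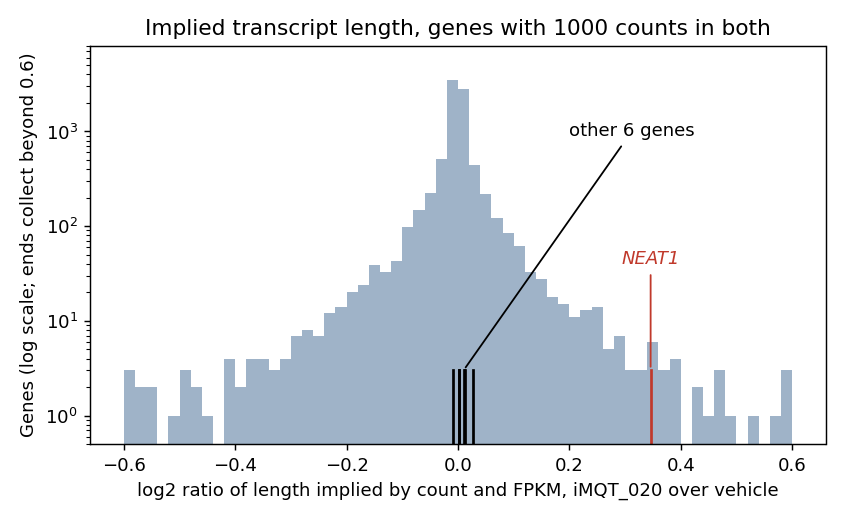
Distribution over 8620 genes of the log2 ratio of implied transcript length, iMQT_020 over vehicle (gene number on a log axis; the end bars collect values beyond 0.6). NEAT1 (red line) lies in the right tail at a ratio of 1.27, and the other 6 genes (black lines) lie near 0.

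NEAT1 has 2 lengths far apart, 22743 bases for the long form and 3441 to 3716 bases for the short one, so the implied length can be read as a mixture. With the spliced short model of 3441 bases, the long form made up 2.18% of NEAT1 molecules with vehicle and 7.60% with iMQT_020, carrying 12.8% and 35.2% of the counts. With an unspliced short form of 3716 bases the shares were 0.768% and 6.27% of molecules and 4.52% and 29.0% of counts. The long form came to 0.936 and 2.68 FPKM under the first choice, a ratio of 2.87, and to 0.329 and 2.21 FPKM under the second, a ratio of 6.72. The long form was thus higher in the iMQT_020 library under both lengths, but by how much rested on the length given to the short form. The short form came to 41.9 and 32.6 FPKM under the first choice and 42.6 and 33.1 FPKM under the second, a ratio of 0.777 in each case. These shares assume that only those 2 forms were present and rest on the authors' estimates, 1 library each. They are shares of the RNA sequenced and not of the RNA in the cells. The long form lacks a poly(A) tail, and how RNA was selected is not stated. The short lengths rest on GENCODE models, and the short form behind the deposited FPKM may differ from them. The implied length with vehicle, 3862 bases, lay close to 3716 bases, so a longer short form would lower the vehicle share further.

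RNAs that lack a poly(A) tail were read beside these values, because MALAT1 and the long form of NEAT1 lack one too and the sources used here do not say how RNA was selected for sequencing. Of 8 such RNAs 5 were measured, with 0 at least 2-fold apart, beside 5.23% of all measured genes. Under the minimum count were SCARNA2, with 6 and 15 counts (1.42, 0.05 to 3.15), SCARNA10, with 6 and 14 (1.32, −0.07 to 3.07), and RPPH1, with 5 and 2 (−0.99, −4.54 to 1.47). Summed levels over all 8 were 208 TPM (vehicle) and 207 TPM (iMQT_020). The small nucleolar RNA SNORD3A had 137 and 233 counts, a log2 ratio of 0.94 (0.63 to 1.26). RMRP, the RNA of RNase MRP, had 110 and 54 counts (−0.84, −1.35 to −0.37), and RN7SL1 and RN7SL2, RNAs of the signal recognition particle, were at −0.32 and −0.22. RN7SK, the RNA that restrains the elongation factor P-TEFb, had 234 and 229 counts (0.14, −0.12 to 0.41). The list therefore had members on both sides of 0. Whether RNA selection took part in the values of MALAT1 and NEAT1 was not tested.

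Rows that overlap the members held few reads, with 2 exceptions. MALAT1 shares its locus with the antisense RNA TALAM1, which had 14 and 21 counts, and with mascRNA, at 1 count in each library. NEAT1 contains the microRNA gene MIR612, at 2 counts in each. Summing these rows left MALAT1 at 1.05 and NEAT1 at 0.06. PSPC1 overlaps the end of MPHOSPH8, which had 3635 and 3682 counts (0.19), and the summed locus was at −0.14 against −0.34 for PSPC1 alone. That sum takes in all counts of MPHOSPH8, so it is a value of both genes together and no check on PSPC1. MATR3 shares its first annotated start with the snoRNA host gene SNHG4, which had 1330 and 693 counts (−0.76), while the summed locus stayed at −0.08.

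RBM14 is joined to RBM4 by a read-through gene, RBM14-RBM4, with 95 and 29 counts (−1.52, vehicle first). RBM4, named after its values were seen, had 8546 and 5596 counts (−0.43), and the sum of the 3 rows was at −0.07. The ratio of the RBM14 row is therefore not that of the whole locus. Pseudogenes listed under the members' symbols held few reads: NONOP1 had 152 and 138 counts, PSPC1P1 had 250 and 167, NONOP2 had 7 and 0, and SFPQP1 was at 0 in both. The sources used here do not say whether counting used strand, and reads of antisense and overlapping rows cannot be told apart.

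Ratios in these libraries varied with transcript length. Over 10 bins of canonical transcript length the bin medians climbed from −0.20 for the shortest to 0.18 for the longest, which holds MALAT1 and NEAT1. Over 10 bins of GC content it ran from 0.13 in the lowest to −0.31 in the highest. After centring on the median of genes in the same length and GC bins, MALAT1 was at 0.84 (against 190 genes), under 2-fold, and NEAT1 at −0.13 (169 genes). NEAT1 was binned by its long form of 22743 bases, although its implied lengths were 3862 and 4908 bases. Length bins holding those shorter lengths had medians of −0.001 (3257 to 3909 bases) and 0.081 (4693 to 5754 bases). The centred value of NEAT1 therefore rests on the length given to it. SFPQ stayed at 0.23, RBM14 was at 0.27, NONO at 0.16, MATR3 at −0.17 and PSPC1 at −0.29. MALAT1 was the highest and PSPC1 the lowest of the 7 before and after centring.

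**Figure D4:**
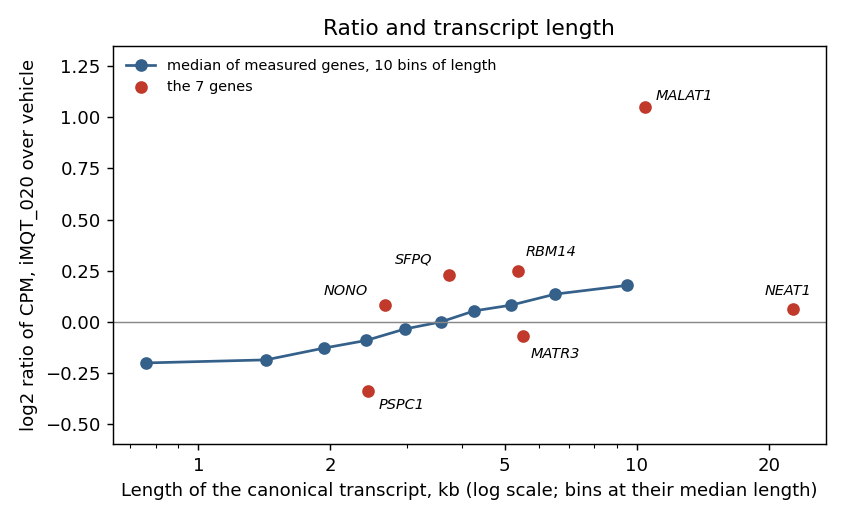
Log2 ratio of CPM, iMQT_020 over vehicle, against canonical transcript length (log axis) for the 7 genes (red) and the median of measured genes in 10 bins of length (blue, at each bin's median length). The bin medians climb from −0.20 to 0.18. MALAT1 lies above and NEAT1, drawn at its long form of 22743 bases, slightly below the median of the longest bin.

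MALAT1 was also set against other long non-coding RNAs. Of 1122 measured rows of this class, 47.0% were above 0, 8.11% were 2-fold or more higher and 7.93% lower, and 85 had a higher ratio than MALAT1. Of the 40 such rows at 30 TPM or more in a library, 12 were above 0, 1 was at least 2-fold higher, MALAT1 itself, and 6 were at least 2-fold lower. By TPM, MALAT1 ranked 37 with vehicle and 20 with iMQT_020 among the 1122, and NEAT1 ranked 11 and 10.

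The listed long non-coding RNAs other than these had 28 of 30 measured, 0 past the 2-fold rule upward, 2 downward, 7 above 0 and a median of −0.20. The shares over all measured rows of the class were 8.11% upward, 7.93% downward and 47.0% above 0. The highest was NORAD, a cytoplasmic RNA that binds Pumilio proteins, with 17332 and 23771 counts (0.63, 0.60 to 0.66). Next were TUG1, with 10802 and 12786 counts (0.42, 0.38 to 0.46), and KCNQ1OT1, with 895 and 1047 (0.40, 0.27 to 0.53). NORAD, TUG1 and KCNQ1OT1 were named after their values were seen. Below 0 were 21 of the listed RNAs, among them those that follow. H19, an imprinted RNA, had 95 and 24 counts (−1.79, −2.52 to −1.15). MIR17HG, the host of the miR-17 cluster, had 2652 and 944 counts (−1.31, −1.42 to −1.21), and SNHG12, a snoRNA host, was at −0.99. LINC-PINT, with 115 and 65 counts, was at −0.64. The most abundant, the snoRNA hosts SNHG29 and GAS5, were at −0.23 and −0.44.

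The other proteins reported in paraspeckles were close to the members, with a median of 0.08 over 33 measured of 35, 22 above 0, 0 past the 2-fold rule upward and 1 downward. The shares over all measured genes were 47.3% above 0, 2.15% upward and 3.09% downward. The 1 downward was PCED1A, with 1491 and 619 counts (−1.09, −1.23 to −0.96). ZC3H6, a zinc finger protein gene with 365 and 475 counts, was at 0.56 (0.36 to 0.76), SS18L1 at 0.35, and RBM12, an RNA-binding protein gene, at 0.34. The most abundant, HNRNPA1 and HNRNPK, which encode RNA-binding proteins, were at −0.20 and 0.06.

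Factors known to act at the short-form poly(A) site of NEAT1 were among them. CPSF6 had 15021 and 15325 counts and a log2 ratio of 0.21 (0.17 to 0.24), and its partner NUDT21 had 16602 and 13737 counts and a ratio of −0.10 (−0.13 to −0.06). HNRNPK, which is known to compete with them and favour the long form, had 82163 and 75668 counts (0.06, 0.04 to 0.07). DAZAP1, needed for assembly, was at 0.01. None of these approached 2-fold, and their part in the NEAT1 mixture was not tested; CPSF6, NUDT21 and DAZAP1 were named after their values were seen.

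Nuclear speckle genes had a median of −0.05, with 16 of 16 measured. Of these, 6 were above 0 and 0 at least 2-fold apart, beside 47.3% and 5.23% of all measured genes. SRRM2 and SON, which encode the large proteins that form the speckle core, were the highest at 0.60 (0.59 to 0.62) and 0.49 (0.47 to 0.51), with 44879 and 60366 counts for SRRM2. SRRM1 was at 0.22. SRSF2, an SR splicing factor and the most abundant by TPM, was at −0.23. SRSF3, another SR factor, was at −0.13 and was next in abundance in the iMQT_020 library. In the vehicle library U2AF2, at 365 TPM, stood just above SRSF3, at 360 TPM.

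The machinery that cuts the 3′ ends of MALAT1 and NEAT1 (RNase P, with RNase Z for the tRNA-like RNA) and METTL16, which binds the MALAT1 triple helix, had 12 of 13 genes measured, a median of −0.20, 5 above 0 and 0 at least 2-fold apart. Of all measured genes 47.3% were above 0 and 5.23% at least 2-fold apart. The RNase P and MRP protein genes RPP25, POP7, POP5 and RPP38 were at −0.45, −0.40, −0.37 and −0.27. ELAC2, RNase Z, had 12072 and 9261 counts (−0.21), and METTL16, named after its value was seen, was at 0.22. RPPH1, the RNA of RNase P, had 5 and 2 counts and was not measured.

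**Figure D5:**
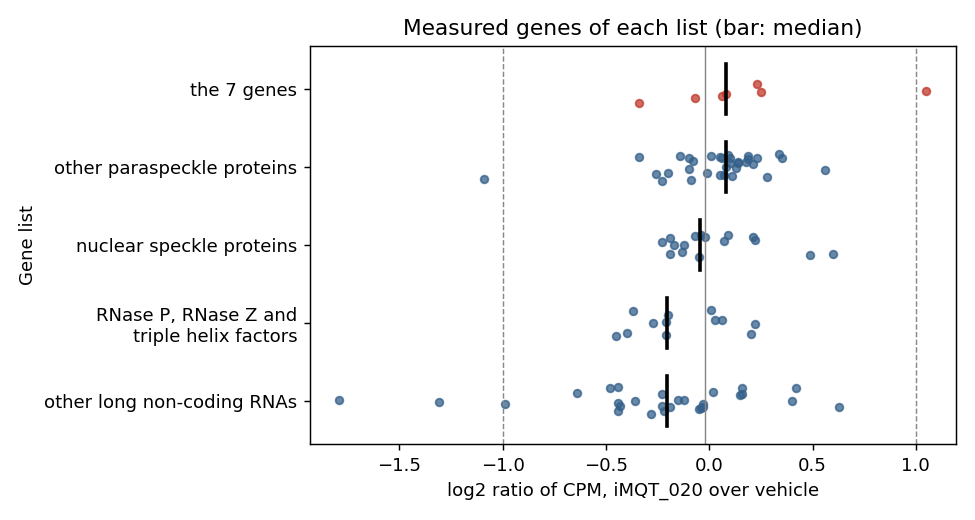
Log2 ratio of CPM, iMQT_020 over vehicle, of each measured gene (points, with random vertical jitter) in 5 lists, with the median of each list as a black bar, dashed lines at 2-fold and a grey line at the median of all measured genes. MALAT1 is the 1 point beyond the right dashed line; the medians run from −0.20 to 0.08.

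Genes around NEAT1 and MALAT1 on chromosome 11 lay on both sides of 0. Of 12 listed, 10 were measured, with a median of −0.02. Above 0 were 4 and at least 2-fold apart 0, beside 47.3% and 5.23% of all measured genes. FRMD8, next to NEAT1, had 1839 and 1807 counts (0.15, 0.06 to 0.25). Farther out, LTBP3 and EHBP1L1 were at −0.71 and −0.70, ZNRD2 was at −0.35, and MAP3K11 and DPF2 were at 0.40 and 0.22. FAM89B and SLC25A45 were at −0.03 and −0.01. TIGD3, with 71 and 126 counts, was just under the 2-fold rule, and its interval (0.57 to 1.44) holds the ratio of MALAT1. KCNK7, with 19 and 2 counts, was not measured.

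Transcription factors reported to act at the NEAT1 promoter had 0 of 4 at least 2-fold apart, beside 5.23% of all measured genes. EPAS1, a hypoxia-inducible factor, had 1676 and 815 counts (−0.86, −0.99 to −0.74). HSF1, the heat shock factor, was at −0.23 (−0.30 to −0.17), and ATF2 at 0.21 (0.13 to 0.28).

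Promoters of the members with the highest and lowest ratios are shown to place these values beside sequence. Each runs from 250 bases before to 50 after the annotated start (RefSeq, GRCh38.p14), and 5 of the 7 members had an entry. Both strands were searched for 6 motifs, marked in capitals. Of 35116 promoters, 11.5% held the TATA box TATAAA and 34.6% held CCAAT, the core of the NF-Y site. The E-box CACGTG was in 7.26%, and the hypoxia core ACGTG, which the E-box contains, was in 21.4%. The cyclic AMP element TGACGTCA was in 1.85% and the heat shock unit GAANNTTC in 6.77%. The MALAT1 promoter at the downstream of its 2 listed starts held 1 TATAAA and none of the others, and the PSPC1 promoter held none of the 6. The upstream MALAT1 start held none of the 6. The promoters of NONO and RBM14 held CCAAT, and of the 2 listed starts of MATR3 the downstream one held ACGTG and the upstream one none of the 6.
MALAT1, chr11:65498795-65499094, plus strand: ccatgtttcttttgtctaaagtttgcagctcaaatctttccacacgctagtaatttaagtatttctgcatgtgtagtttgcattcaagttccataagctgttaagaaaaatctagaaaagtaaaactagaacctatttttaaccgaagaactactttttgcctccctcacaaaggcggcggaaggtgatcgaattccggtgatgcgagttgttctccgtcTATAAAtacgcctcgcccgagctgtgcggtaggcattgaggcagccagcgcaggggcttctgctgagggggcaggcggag
PSPC1, chr13:19782896-19783195, minus strand: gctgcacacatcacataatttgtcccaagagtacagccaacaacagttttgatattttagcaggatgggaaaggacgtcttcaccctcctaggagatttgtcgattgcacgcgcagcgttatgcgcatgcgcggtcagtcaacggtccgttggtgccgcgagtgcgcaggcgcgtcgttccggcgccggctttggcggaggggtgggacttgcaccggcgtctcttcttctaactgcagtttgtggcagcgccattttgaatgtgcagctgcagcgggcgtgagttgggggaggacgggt

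The genes whose values over the 2 libraries lay nearest to those of MALAT1, by distance in log2 ratio and log2 mean CPM over all measured genes, were CREBBP, with 7808 and 14647 counts (1.08, distance 0.0409), EP300, with 9212 and 16728 counts (1.04, distance 0.192), and AFF4, with 9420 and 14386 counts (0.79, distance 0.266). Nearest to NEAT1 were PHIP at 0.07 (distance 0.0232), MCMBP at 0.04 (0.0298) and CPNE3 at 0.06 (0.0335). MCMBP had 41.3 and 42.2 FPKM, so the pair of counts was like that of NEAT1 while its FPKM did not go down. With 2 libraries such likeness is only that of 2 pairs of values.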

How the data were processed

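RNA from 2 cultures, vehicle and iMQT_020, was sequenced after TRIzol extraction. Reads were mapped to GRCh38 with HISAT2 and Bowtie2, per the labels' protocols, and StringTie and edgeR are named without role or version, per the submitters' processing notes. Per gene, the deposited table holds estimated counts, which are whole numbers, and the authors' FPKM and TPM, both scaled for length and depth. A shorter deposited table repeats the FPKM.

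Counts were scaled by TMM in edgeR 4.0.16 (R 4.3.3; factors 0.998 and 1.002), with a minimum of 50 counts in a library, a prior count of 0.5, a 2-fold rule and exact Clopper-Pearson 95% intervals of the ratio. These intervals cover counting error only and take rounded estimates as whole reads. Implied length is count over FPKM, calibrated as described above. Lengths, GC content and 3′ ends came from GENCODE 44, for 93.6% of measured genes, positions and promoters from RefSeq GRCh38.p14, and other sequence from the GRCh38 genome. Python 3.11.15 was used, and the calculation was tested on simulated data.

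The members and lists were chosen with earlier results of these data known. Named genes were the members, overlapping rows and pseudogenes, the neighbours and promoter factors, the 4 largest absolute ratios and 2 most abundant genes of other lists, and the 3 nearest genes to MALAT1 and NEAT1. Some genes under this rule are not reported here. The alternatives were other scalings (DESeq2 1.42.0 median of ratios, total counts, upper quartile, totals without mitochondrial and rRNA genes), minimum counts, prior count 5, a 1.5-fold rule, deposited TPM and FPKM, summed overlapping rows, and centring on length and GC content.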

Additional observations from a re-analysis of the deposited data

How the results depend on the processing

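Over 14 alternatives MALAT1 stayed above 0 (0.84 at the lowest) and was at least 2-fold higher under 12, the exceptions being centring on length and GC content (0.84) and deposited FPKM + 1, where it fell just short and 0 members passed. NEAT1 ran from −0.27 to 0.07 and was below 0 under 4: −0.23 with deposited TPM + 1 and with TPM + 0.1, −0.27 with FPKM + 1, and −0.13 when centred. The first 3 follow from the longer implied length in the iMQT_020 library. The last follows from subtracting the positive median of its length and GC bin, with NEAT1 placed at its long form of 22743 bases. SFPQ (0.20 to 0.25), NONO (0.07 to 0.16), RBM14 (0.24 to 0.30), PSPC1 (−0.35 to −0.14) and MATR3 (−0.17 to −0.03) kept their direction under all 14, the settings that cannot change a ratio included. The −0.14 of PSPC1 is the sum with all counts of MPHOSPH8. RBM14 summed also with RBM4 was at −0.07, an alternative added after its values were seen. Scaling moved the median of all genes to −0.04 at most.

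Genes at least 2-fold higher and lower, 318 and 457, were 1236 and 1008 with a minimum of 10 counts, 89 and 244 with 200, 3503 and 2756 with none, 933 and 1514 under a 1.5-fold rule, 140 and 223 with TPM + 1, and 48 and 118 with FPKM + 1. The minimum counts and fold rule change which genes are eligible or called by construction. Adding 1 to TPM or FPKM pulls ratios toward 0, also by construction, and with TPM + 0.1 the numbers were 377 and 477. Other effects of the deposited units were not tested. Of the listed long non-coding RNAs, 1 was lower with a minimum of 200 and with TPM + 0.1, 0 with TPM + 1 or FPKM + 1, and 4 were lower and 1 higher under a 1.5-fold rule, under which 1 nuclear speckle gene was higher. Of the other paraspeckle genes, 0 were lower with any of the deposited units. No paired analysis was possible because each group has 1 library. With 1 library per group the depth narrows counting error only and says nothing of variation between cultures.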
